A study of Mus musculus with 4 samples.

Results

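The carbonic anhydrases described here are 10 mouse genes, Car2, Car3, Car4, Car6, Car7, Car8, Car9, Car12, Car13 and Car14. They were taken by gene name from the non-control probes of 4 one-colour (Cy3) Agilent arrays, where 13 of 41174 probes carry these names. The arrays measured total RNA of fibroblasts (connective tissue cells) cultured from mouse embryos. A first pair of arrays holds fibroblasts transduced with Oct3/4 (gene Pou5f1), Sox2, Klf4 and c-Myc (gene Myc), the factors used to reprogramme fibroblasts towards pluripotency, kept for 72 hours at 5% or 21% O2 and labelled day 4. They are called four-factor cells below. The other pair holds untransduced fibroblasts kept for 10 days at 5% or 21% O2. The vectors, the promoters that drive the factors, the mouse strain and any pooling of embryos are not given in the sources used here.

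Carbonic anhydrases are zinc enzymes that turn carbon dioxide and water into bicarbonate and a proton, and the reverse. Cells that make much acid through glycolysis use them, with bicarbonate and proton transporters, to hold the inside of the cell near neutral while acid leaves. The family is grouped by where the enzyme sits. Car9, Car12 and Car14 cross the plasma membrane and Car4 is anchored to it by a lipid, all with the catalytic part outside the cell. Car2, Car3, Car7, Car8 and Car13 are cytosolic, and Car6 is secreted. Car9 is best known as a gene induced by low oxygen through the hypoxia-inducible factors, mainly from work on human tumours.

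Each condition had 1 array, so a difference between 2 arrays has no test. Values are log2 of the processed signal relative to the 75th percentile of its array, so 0 is the level of that percentile and each unit is a factor of 2. Each probe of these genes was printed once per array, and the error given with a difference is the extraction software's own error of the spots involved. It covers the reading of a spot, mostly as a preset share of 0.1 of the signal per the file headers, and not the spread between cultures. A gene is called measured where its brightest probe was well above background, and probes of different genes were not ranked against each other. The arrays of each culture share a slide, so transduction, time in culture and slide cannot be told apart. The lowest signal well above background was 9.64 and 9.86 intensity units on the four-factor arrays (5% and 21% O2) and 24.9 and 26.5 on the untransduced arrays, so a weak probe could be measured in four-factor cells and not in untransduced ones. No spot was saturated.

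Pou5f1 stood at -0.20 and -0.59 in four-factor cells (5% and 21% O2) and was not well above background in untransduced fibroblasts. The brightest Myc probe was at 4.05 and 3.75 in four-factor cells, against -0.11 and 1.16 in untransduced fibroblasts. A second Myc probe had the same order, and the third had the opposite one, at 0.08 and 0.52 in four-factor cells against 0.82 and 2.03 in untransduced fibroblasts. Probes of Klf4 and Sox2 were lower in four-factor cells, and whether these probes and those of Myc lie in the part of each gene that the vectors carried is not given here, so they do not check the labels. All 11 fibroblast markers, among them Col1a1, Dcn and Vim, were well above background on every array. Their summed relative signal was 491 and 535 in four-factor cells (5% and 21% O2), against 1162 and 1107 in untransduced fibroblasts. Vim alone was higher in four-factor cells, at 7.24 and 7.26 against 6.68 and 6.76. The others were lower by unequal amounts, from Col1a1 (6.40 and 6.45, against 6.84 and 6.98) to Lum (0.49 and 0.57, against 6.80 and 6.16).

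Of the 10 genes, 9 were measured on both four-factor arrays and 8 on both untransduced arrays. Car4, an enzyme of capillary and epithelial surfaces, was not well above background on any array. Car14, known from retina and brain, was measured in four-factor cells only. Of the 13 probes, 12 have an accession that a RefSeq gene table (assembly GRCm38.p6) gives to the same gene, and the remaining one is the second Car3 probe, named by the array files alone.

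**Figure D1:**
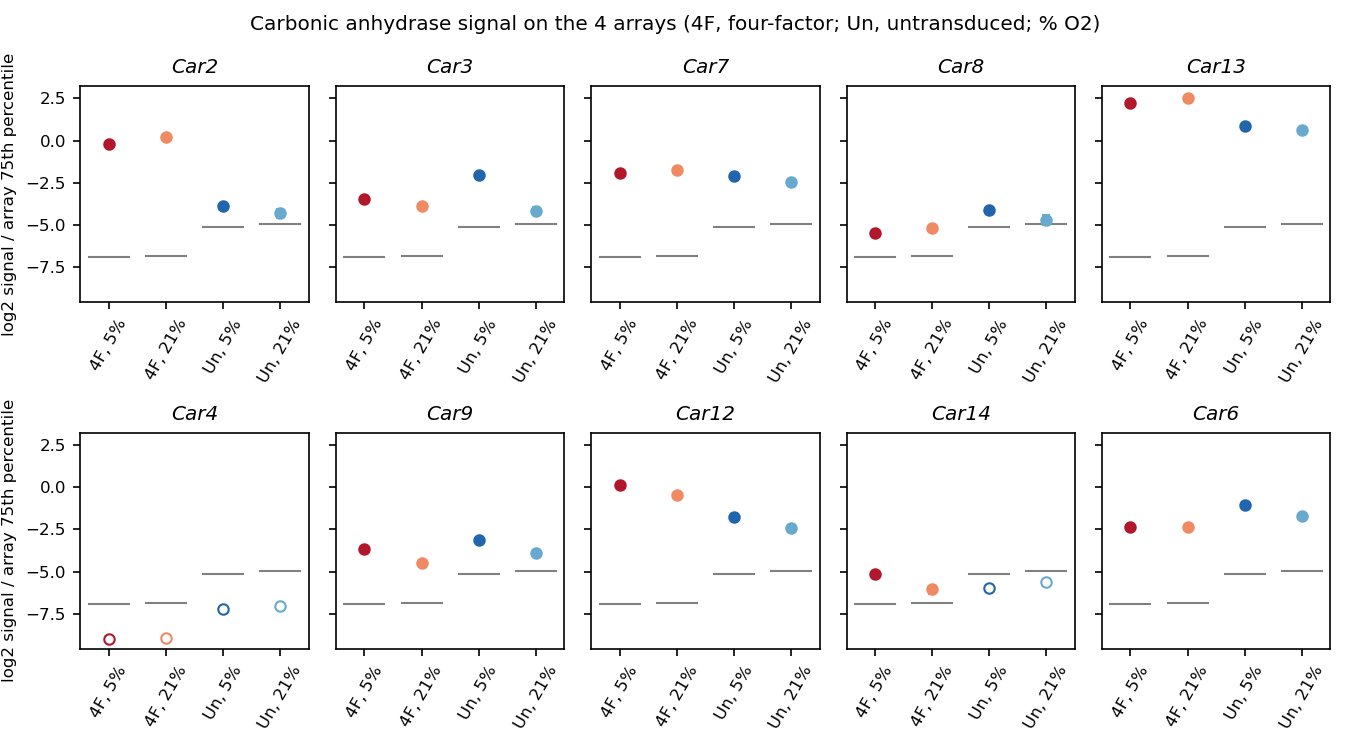
Signal of the 10 carbonic anhydrases on each array (y axis, log2 of signal over the array's 75th percentile; 4F, four-factor; Un, untransduced), brightest probe of each gene, with the membrane enzymes and Car6 in the lower row. Filled points were well above background and carry the spot error, mostly smaller than the point; open points were not, and grey bars mark the lowest value well above background on that array. Car2, Car12 and Car13 sit higher on both four-factor arrays, Car3 is highest in untransduced fibroblasts at 5% O2, and Car4 is open throughout.

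The first comparison set 5% against 21% O2 within each culture. Car9 and Car12 were higher at 5% than at 21% O2 in both cultures, by nearly the same amount in each and by less than 2-fold. Car14 was higher at 5% O2 in four-factor cells. Car3 was 4.21-fold higher at 5% O2 in untransduced fibroblasts, the one oxygen difference of at least 2-fold among these genes. The remaining cytosolic genes and Car6 were higher at 5% O2 in untransduced fibroblasts and lower or level in four-factor cells. In whole cultures such as these, fewer cells of a type and less RNA per cell cannot be told apart.

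Car9, the membrane enzyme with the known oxygen response, is read by a probe at 43534251 to 43534310 of chromosome 4 (all probe positions are those of mouse build mm8; no annotation of that build was used here, so exons and UTRs are not named). Its level was -3.69 and -4.51 in four-factor cells (5% and 21% O2) and -3.11 and -3.90 in untransduced fibroblasts (5% and 21% O2). Both 5% O2 arrays lay above both 21% O2 arrays. The difference was 0.83 in four-factor cells (spot error 0.22) and 0.80 in untransduced fibroblasts (spot error 0.27), and these differed by 0.03 with a spot error of 0.35. In four-factor cells 98.0% of the 18475 genes measured on both arrays had a smaller difference, and in untransduced fibroblasts 96.1% of 15619 did. The signal was weak, at 89.2 and 49.7 intensity units in four-factor cells, and with a normexp background correction the differences were 0.51 and 0.37.

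Car12, a membrane enzyme of kidney, gut and other epithelia, moved in parallel with Car9 against oxygen. Its brighter probe (chromosome 9, 66565373 to 66565432) was at 0.13 and -0.48 in four-factor cells (5% and 21% O2) and at -1.75 and -2.42 in untransduced fibroblasts (5% and 21% O2). The level at 5% O2 was higher in each culture, but the untransduced array at 5% O2 lay below the four-factor array at 21% O2. The difference was 0.61 in four-factor cells (spot error 0.20) and 0.67 in untransduced fibroblasts (spot error 0.21). The second Car12 probe, mapped over 9455 bases from 66552947 to 66562401, was not well above background on any array. Averaging both probes takes the four-factor difference to 0.01.

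Promoter sequence is shown for Car9 and Car12, the pair that was higher at 5% O2 in both cultures, as the bases that precede the annotated start. The hypoxia-inducible factors bind a core that reads ACGTG or GCGTG, so both strands were searched for these letters in the RefSeq promoters (GRCm38.p6, 250 bases before to 50 after a start). The 250 bases before each start run 5′ to 3′ on the plus strand, at chr4:43506776-43507025 for Car9 and chr9:66713436-66713685 for Car12, and capitals mark a match.
Car9: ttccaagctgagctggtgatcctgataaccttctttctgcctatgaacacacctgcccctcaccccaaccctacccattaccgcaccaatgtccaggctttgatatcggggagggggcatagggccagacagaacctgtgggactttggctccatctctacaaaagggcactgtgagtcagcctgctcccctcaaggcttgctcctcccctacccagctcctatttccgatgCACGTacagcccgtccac
Car12: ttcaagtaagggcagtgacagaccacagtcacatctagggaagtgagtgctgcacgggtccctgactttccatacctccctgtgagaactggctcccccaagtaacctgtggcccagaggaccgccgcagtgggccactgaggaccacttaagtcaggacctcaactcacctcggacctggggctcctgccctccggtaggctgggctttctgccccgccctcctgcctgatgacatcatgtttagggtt
Car9 had ACGTG once, on the minus strand, with the first base of the match 18 bases before the start. Car12 had neither core in its window, although it was also higher at 5% O2. Promoters were found for 6 of the 10 genes, namely Car4, Car6, Car7, Car9, Car12 and Car14, and all but Car12 had at least 1 match in at least 1 promoter. Over 32851 promoters 19.6% held ACGTG and 32.4% GCGTG, and 43.8% held either. A match describes the letters and is not evidence of binding, and no match says only that these letters are not in the window.

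Car14 is a membrane enzyme with a catalytic part outside the cell. Its probe (chromosome 3, 95983341 to 95983400) was at -5.12 and -6.05 in four-factor cells (5% and 21% O2), and at -5.94 and -5.63 in untransduced fibroblasts, where it was not well above background. The difference in four-factor cells was 0.93 (spot error 0.29), which 98.5% of genes did not reach. It rests on 33.0 and 17.1 intensity units, and with normexp it was 0.44.

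Car3, a slow cytosolic isozyme abundant in skeletal muscle and adipose tissue, had the largest oxygen difference among the 9 measured carbonic anhydrases. Its brighter probe (chromosome 3, 14848525 to 14848584) was at -3.43 and -3.88 in four-factor cells (5% and 21% O2), against -2.06 and -4.13 in untransduced fibroblasts (5% and 21% O2). The untransduced array at 5% O2 stood apart from the other 3, and both 5% O2 arrays lay above both 21% O2 arrays. The difference was 2.08 in untransduced fibroblasts (spot error 0.27), the 33rd largest of 15619 genes, and 0.44 in four-factor cells (spot error 0.21). The second probe (14841475 to 14841534) was well above background on the untransduced array at 5% O2 only, where it was at least 1.25-fold above the untransduced array at 21% O2. The untransduced signal at 21% O2 was 46.2 intensity units, near the limit of that array, and with normexp the difference was 1.20.

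In untransduced fibroblasts the summed adipocyte markers were higher at 5% O2, as Car3 was. There 5 of 8 were well above background at 5% O2 and 3 of 8 at 21% O2, with a summed relative signal of 88.9 and 39.6. Most of that sum is Lpl, at 6.42 and 5.25. Adipoq and Plin1 were measured at 5% O2 only, while Cfd, Lep and Retn were dim on both arrays. Skeletal muscle markers, at 5 of 9 on both arrays, summed to 3.29 at 5% O2 and 7.91 at 21% O2. Most of each sum is Acta1, at 0.91 and 2.66. Myh3 and Myh8 were also lower at 5% O2, while Des (-2.72 and -2.88) and Tnnt3 (-3.62 and -4.05) were higher. Myod1, Myog, Ckm and Mb were dim on both. Macrophage markers, 10 of 10 on both arrays, summed to 35.6 and 16.2. In four-factor cells the adipocyte markers summed to 1.98 and 2.03 (5% and 21% O2), while Car3 was higher at 5% O2. The untransduced array at 21% O2 had the lowest Car3 value and a larger adipocyte sum than either four-factor array. Nearly all of that sum is Lpl, and Adipoq, Plin1, Cfd, Lep and Retn were dim there as on the four-factor arrays. The part of these cell types in the Car3 difference was not tested.

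The remaining cytosolic genes differed little with oxygen and in opposite directions in the 2 cultures. Car2, the fast isozyme of red cells, osteoclasts and kidney, differed by -0.40 in four-factor cells (spot error 0.20) and by 0.43 in untransduced fibroblasts (spot error 0.31). For Car13, a widely expressed cytosolic isozyme, the four-factor difference was -0.28 and the untransduced one 0.24 (spot error 0.20 each). Car7, an isozyme of neurons, gave -0.23 (spot error 0.20) in four-factor cells and 0.36 (spot error 0.21) in the untransduced ones. Car8, a relative that has lost catalytic activity and binds the inositol trisphosphate receptor, gave -0.30 (spot error 0.27) in four-factor cells and 0.59 (spot error 0.36) in the untransduced ones. Each exceeded its spot error, none by a wide margin, and with normexp the four-factor value of Car8 was 0.10. With spike-in scaling the four-factor values of Car7 (-0.08), Car8 (-0.15) and Car13 (-0.13) were within their spot errors.

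Car6, the secreted isozyme of saliva and milk, was level in four-factor cells and higher at 5% O2 in untransduced fibroblasts. Its probe (chromosome 4, 149030978 to 149031037) was at -2.37 on both four-factor arrays, against -1.04 and -1.70 in untransduced fibroblasts (5% and 21% O2). The difference was -0.01 in four-factor cells (spot error 0.21) and 0.66 in untransduced fibroblasts (spot error 0.21).

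**Figure D2:**
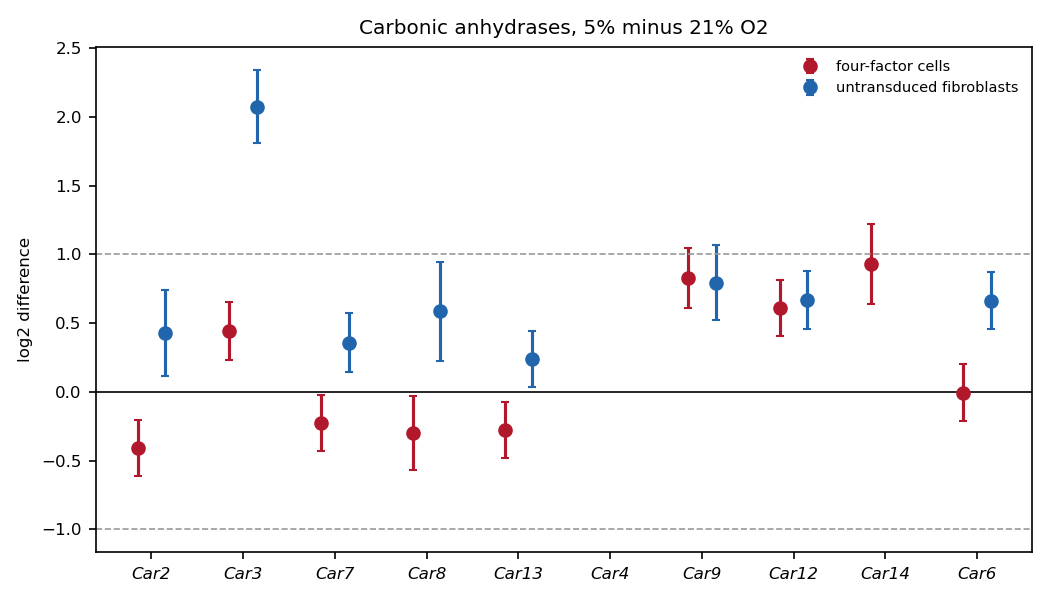
Log2 difference between 5% and 21% O2 (y axis) for each carbonic anhydrase measured on both arrays of a culture, with spot error bars and dashed lines at 2-fold. Car9 and Car12 lie between 0.61 and 0.83 in both cultures, Car3 reaches 2.08 in untransduced fibroblasts, and Car2, Car7, Car8 and Car13 lie on opposite sides of 0.

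Counted together, 0 of 9 measured carbonic anhydrases passed 2-fold with oxygen in four-factor cells, where 1.24% of all genes were higher at 5% O2 by that much and 1.07% lower (2.31% together). In untransduced fibroblasts 1 of 8 was at least 2-fold higher, against 2.51% of all genes, and 0 lower, against 1.72% (4.23% together). Below that size the cultures differed: all 8 measured genes lay above 0 in untransduced fibroblasts (44.8% of all genes did), with a median of 0.62 against -0.04 over all genes, and 4 of 9 lay above 0 in four-factor cells (48.4% of all genes), with a median of -0.01 against -0.01. Both 5% O2 arrays lay above both 21% O2 arrays for Car3 and Car9, 2 of 8 genes measured on all arrays, against 5.01% of all genes, and 0 of 8 had the reverse order (7.76%). Car3, Car9 and Car12 were higher at 5% O2 in both cultures, 3 of 8 against 23.8%, and 0 of 8 were lower in both (31.6%). None of the 8 was higher at 5% O2 in four-factor cells and lower in the untransduced ones, an order that 24.1% of all genes had.

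The oxygen difference common to both cultures was fitted with limma over 18836 genes, with terms for culture and oxygen and the disagreement between the cultures as the error, which leaves 1 residual degree of freedom. The limma fit moderates that error with an error shared across genes, which had 2.78 prior degrees of freedom. No carbonic anhydrase passed at an adjusted p of 0.05, and neither did any other gene (0% higher and 0% lower), while the unadjusted p was below 0.05 for 655 higher and 762 lower genes. After normexp the adjusted p was below 0.05 for 106 higher and 125 lower genes, none of them a carbonic anhydrase. Car9 had an estimate of 0.81 (SE 0.16) with an adjusted p of 0.605 in limma, higher at 5% O2 in 2 of 2 cultures. Car12 had 0.64 (SE 0.16) with the same adjusted p of 0.605, also in 2 of 2. Car3 had 1.26 (SE 0.45, adjusted p 0.665), and with scaling on the spike-in controls 1.30 and an adjusted p of 0.00681. The smallest adjusted p with spike-in scaling was too small for 1 residual degree of freedom, so that fit leans on the shared error. The Car3 value there does not measure the disagreement between its cultures (2.08 and 0.44 in the main setting).

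The second comparison set four-factor cells against untransduced fibroblasts. Car2, Car12 and Car13 were at least 2-fold higher in four-factor cells at both oxygen levels, Car2 the most, at 12.6-fold and 22.4-fold (5% and 21% O2). Car3, Car6 and Car8 were at least 2-fold lower at 5% O2 and not at 21% O2. Car9 was lower by less than 2-fold and Car7 was higher by less than 2-fold.

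Car2 (probe on chromosome 3, 14876950 to 14877009) was at -0.20 and 0.21 in four-factor cells (5% and 21% O2), against -3.85 and -4.28 in untransduced fibroblasts. The cultures did not overlap, and the weakest four-factor signal was 1002 intensity units where the strongest untransduced signal was 60.4. The difference was 3.65 at 5% O2 (spot error 0.24) and 4.49 at 21% O2 (spot error 0.29), the 92nd largest of 15879 genes and the 23rd largest of 15643. The untransduced signal at 21% O2 was 41.7 intensity units, near the limit of that array (26.5), and with normexp the differences were 2.78 and 3.31. Markers of other cells that use Car2 also differed between the cultures. On each four-factor array 3 of 7 erythroid markers were well above background, and 0 of 7 in untransduced fibroblasts, with summed relative signals of 0.653 and 0.696 (5% and 21% O2) against 0.0955 and 0.0933. Alas2, the haem synthesis enzyme of red cell precursors, was dim on all arrays, while the globin Hba-a1 was at -0.85 and -0.72 in four-factor cells, against -5.11 and -5.26 (not well above background) in untransduced fibroblasts. Hba-a1 made most of the four-factor erythroid sums. The counts of markers also depend on the lower detection limit of the four-factor arrays. Klf1, counted at -5.72 in four-factor cells at 21% O2, lay below the untransduced limit at 21% O2 (-4.93). Osteoclast markers summed to 0.883 and 1.40 in four-factor cells, with 4 of 6 measured, against 6.63 and 5.61 in untransduced fibroblasts, with 2 and 3 of 6, and most of that sum is Ctsk, at -0.43 and 0.34 in four-factor cells against 2.68 and 2.44 in untransduced fibroblasts. The part of such cells in the Car2 difference was not tested.

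Car13 (chromosome 3, 14638331 to 14638390) was at 2.24 and 2.51 in four-factor cells (5% and 21% O2), against 0.88 and 0.63 in untransduced fibroblasts. All 4 signals lay above the 75th percentile of their array, and the cultures did not overlap. The difference was 1.36 at 5% O2 and 1.88 at 21% O2 (spot error 0.20 each), or 2.57-fold and 3.68-fold.

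Car12, whose levels are given above, differed between the cultures by 1.88 at 5% O2 and 1.94 at 21% O2 (spot error 0.21 each), higher in four-factor cells on each. The difference was nearly the same at both oxygen levels, and averaging in the dim second probe took it to 0.37 and 0.59. Epithelial markers summed to 17.0 and 10.9 in four-factor cells (5% and 21% O2, 7 of 8 measured on each array), against 3.05 and 1.99 in untransduced fibroblasts (7 and 4 of 8). Krt8 and Krt19 made most of the four-factor sums, and Epcam, Cdh1 and Cldn3 were also higher there. Others went the other way. Cldn7 (-4.06 and -4.93, against -3.18 and -4.06) and Krt18 (-0.99 and -0.52, against -0.43 on each) were lower in four-factor cells. Cldn4 was measured only in untransduced fibroblasts at 5% O2. The part of epithelial cells in the Car12 difference was not tested.

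Car6 differed between the cultures by -1.34 at 5% O2 and -0.67 at 21% O2 (spot error 0.21 each), lower in four-factor cells on each. Car8 (chromosome 4, 8072704 to 8072763) was at -5.46 and -5.17 in four-factor cells, against -4.10 and -4.69 in untransduced fibroblasts (5% and 21% O2 in each). Its difference was -1.37 at 5% O2 (spot error 0.29) and -0.48 at 21% O2 (spot error 0.35). With normexp the value at 5% O2 was -0.54, short of 2-fold, and with probe means the value at 21% O2 was -1.19. All of its signals lay between 26.0 and 50.8 intensity units, and a second Car8 probe (8070545 to 8070604) was dim on every array. Car3 differed by -1.37 at 5% O2 (spot error 0.21) and 0.26 at 21% O2 (spot error 0.27), and the value at 21% O2 was -0.16 with normexp and -1.07 with probe means.

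Car9 differed by -0.58 at 5% O2 (spot error 0.22) and -0.61 at 21% O2 (spot error 0.27). With spike-in scaling, which moved the median of all genes up by 0.62 at 5% O2 and 0.40 at 21% O2, the Car9 differences were 0.04 and -0.21. Car7 (chromosome 8, 107438126 to 107438185) was at -1.94 and -1.71 in four-factor cells (5% and 21% O2), against -2.08 and -2.43 in untransduced fibroblasts. Its difference was 0.13 at 5% O2 and 0.72 at 21% O2 (spot error 0.21 each). Car14 was measured in four-factor cells only and, set against the detection limit of the untransduced arrays, gave a bound of at least 1.01-fold at 5% O2 and none at 21% O2.

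**Figure D3:**
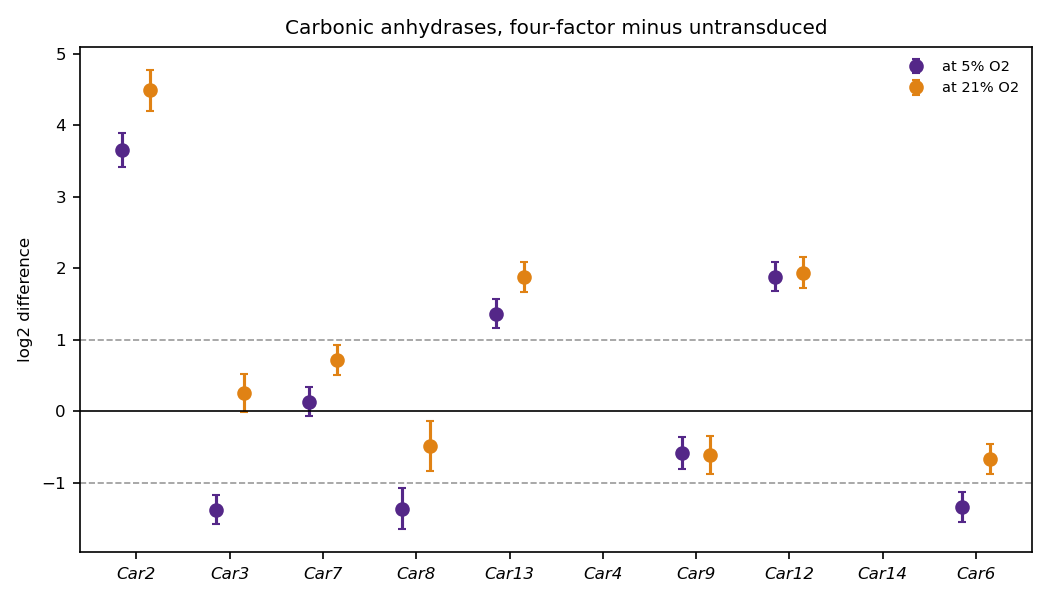
Log2 difference between four-factor and untransduced cells (y axis) for each carbonic anhydrase measured on both arrays, at 5% and 21% O2, with spot error bars and dashed lines at 2-fold. Car2, Car12 and Car13 lie above the upper line at both oxygen levels; Car3, Car6 and Car8 lie below the lower line at 5% O2 only.

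At 5% O2, 3 of 8 measured genes passed 2-fold on the higher side in four-factor cells (17.1% of all genes) and 3 of 8 on the lower side (19.9%; 37% together). At 21% O2, 3 of 8 were higher (11.8%) and 0 lower (16.5%; 28.3% together). Spike-in scaling gave 3 higher and 0 lower at 5% O2, and took the higher genes among all genes past 2-fold to 75.9% at 5% O2 and 67.6% at 21% O2, up by 29.7 and 26.0 percentage points. Car2, Car7, Car12 and Car13 did not overlap between the cultures on the higher side, 4 of 8 against 40.9% of all genes, and Car6 and Car8 on the lower side, 2 of 8 against 41.2%. The shares without overlap were near or below those of all genes, and counts over 8 genes say little of the family as a whole.

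In the limma fit, the culture term was called for 5 of the 9 fitted carbonic anhydrases, 3 higher in four-factor cells (27.1% of all genes) and 2 lower (22.5%), with both oxygen levels standing in for replicates. The estimate was 4.07 for Car2 (SE 0.27, adjusted p 0.00437), 1.91 for Car12 (SE 0.16, adjusted p 0.00568) and 1.62 for Car13 (SE 0.21, adjusted p 0.0106), each higher in 2 of 2 comparisons. Car6 was at -1.003 (SE 0.23, limma adjusted p 0.0344) and Car9 at -0.59 (SE 0.16, limma adjusted p 0.0468), each lower in 2 of 2. The Car9 call was lost with quantile normalization (adjusted p 0.0891), median scaling (0.0538), spike-in scaling (0.811) and no filter on dim probes (0.0543), and the Car6 call with spike-in scaling (0.125). Averaging the Car12 probes, one of them dim, took its limma adjusted p to 0.0871. Car8 (-0.92, limma adjusted p 0.0601), Car3 (-0.56, 0.352), Car7 (0.43, 0.180) and Car14 (0.20, 0.671) were not called, though normexp called Car8 (0.017) and Car3 (0.0208) and spike-in scaling Car7 (0.00372) and Car14 (0.0384). The fits with normexp and spike-in scaling lean on the error shared across genes, so these calls do not measure the disagreement between oxygen levels for each gene.

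**Figure D4:**
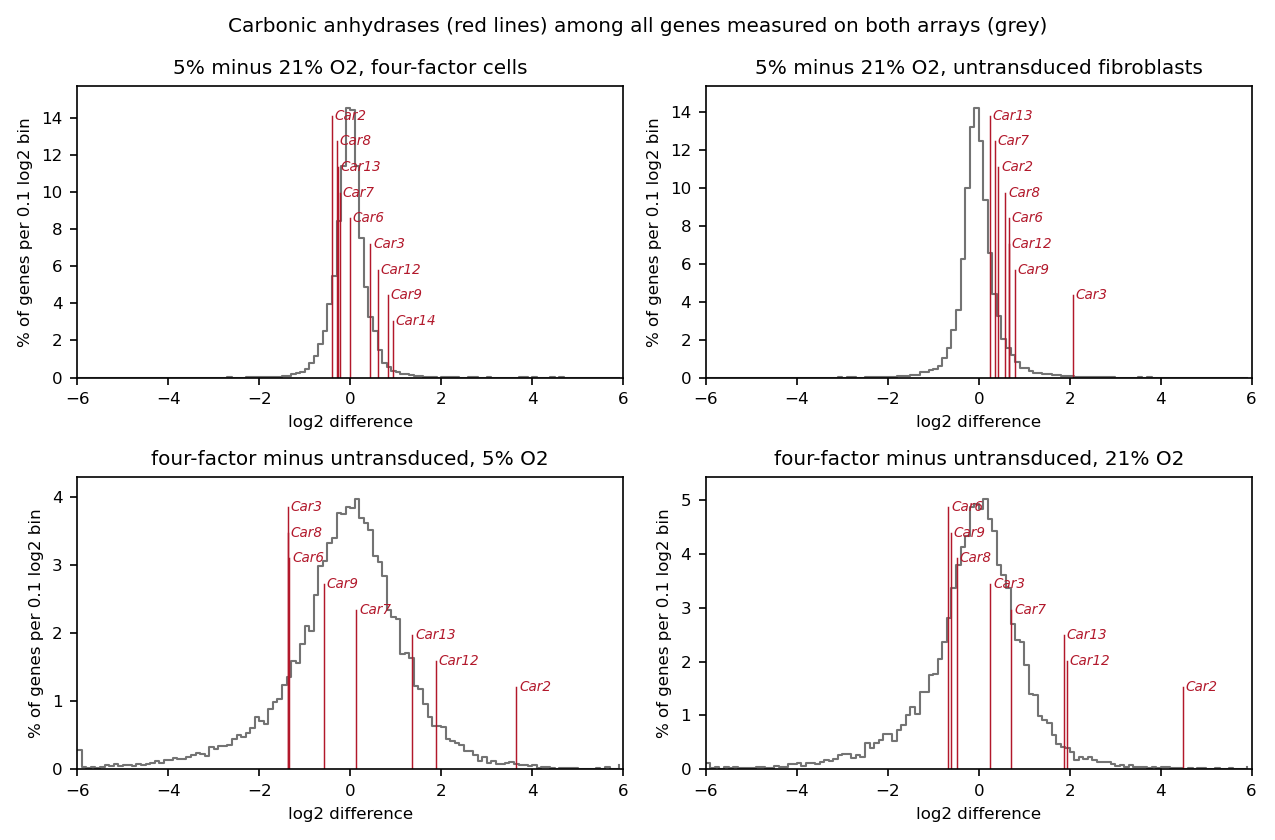
Share of genes (y axis, percent per bin of 0.1) by log2 difference (x axis) for each comparison, over all genes measured on both arrays (grey, values past 6 in the outermost bins), with each measured carbonic anhydrase as a red line whose height has no meaning. All 8 lines lie right of 0 for oxygen in untransduced fibroblasts, and Car2 lies far to the right in both four-factor comparisons.

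For each gene measured on all arrays that spanned at least 1 log2 unit, the nearest genes by profile were found among 11858 others, as the Euclidean distance between 4 values centred on their mean. With 4 arrays this describes the values and carries no test. Nearest to Car9 were As3mt (distance 0.05), Hunk (0.14) and Fbxo27 (0.16), and As3mt stood at -0.34 and -1.17 in four-factor cells, against 0.29 and -0.52 in untransduced fibroblasts (5% and 21% O2 in each). Nearest to Car12 were Abca1 (0.10), Dock11 (0.12) and Plcl2 (0.14). Nearest to Car2 were Fam110c (0.07), Tnfsf9 (0.28) and Mfsd6 (0.33), all high in four-factor cells, with Fam110c at 1.34 and 1.74 there against -2.28 and -2.66 in untransduced fibroblasts. Nearest to Car3 were Ebi3 (0.21), Acss1 (0.27) and Pi16 (0.30). Car13 had Ovgp1 (0.09), Golph3l (0.17) and Itpr3 (0.17), Car6 had Lrrc51 (0.06), Tmem158 (0.06) and Nme5 (0.08), and Car8 had Gcnt1 (0.09), Ifi205 (0.09) and Ganc (0.10).

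The other genes of the family, with the receptor phosphatases Ptprg and Ptprz1 that carry a carbonic anhydrase-like domain, made a list of 8. In four-factor cells 1 of 7 measured was at least 2-fold higher at 5% O2 (1.24% of all genes). It was Car15, a membrane-anchored enzyme, at -4.15 and -5.21 (5% and 21% O2). None of 5 passed 2-fold with oxygen in untransduced fibroblasts, where 4.23% of all genes did. Car5b, a mitochondrial isozyme, was lower at 5% O2 in both cultures (-0.71 in the four-factor and -0.48 in the untransduced one). Between cultures none was at least 2-fold higher in four-factor cells. On the lower side there were 1 of 6 at 5% O2 (19.9% of all genes) and 2 of 5 at 21% O2 (16.5%). Car11, a relative without catalytic activity, was lower at both oxygen levels (-1.92 at 5% and -1.71 at 21% O2), and Car15 at 21% O2 (-1.05). Car5a was dim on all arrays.

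Bicarbonate transporters, the partners of these enzymes, made a list of 16, of which 9 were measured on the four-factor arrays and 7 on the untransduced ones. In four-factor cells 8 of 9 lay below 0 at 5% O2 with a median of -0.38 (-0.01 over all genes, of which 48.4% lay above 0), and 1 was past 2-fold on the lower side (1.07% of all genes), the sodium bicarbonate cotransporter Slc4a7 at -1.23, on which all 3 of its probes went the same way. In untransduced fibroblasts 5 of 7 lay above 0 (44.8% of all genes) with a median of 0.25 (-0.04 over all genes) and none passed 2-fold. Between cultures at 5% O2, 1 of 7 was at least 2-fold higher in four-factor cells (17.1% of all genes), Slc4a8 (2.05), and 5 lower (19.9%), among them the anion exchangers Slc4a2 (-1.21), Slc4a3 (-2.28) and Slc26a6 (-1.05), and Slc26a11 (-1.13). Slc4a7 was the fifth (-2.59 on its brightest probe), but only 1 of its 3 probes went that way. At 21% O2, 1 of 7 was at least 2-fold higher (11.8% of all genes), Slc4a8 (2.22), and 1 lower (16.5%), Slc4a3 (-1.08). Slc4a2 (-0.63), Slc26a6 (-0.39), Slc26a11 (-0.59) and Slc4a7 (-0.39) were short of 2-fold there.

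In the list of 20 proton exporters and exchangers, 14 were measured on the four-factor arrays and 15 on the untransduced ones. Slc16a3, which exports lactate with a proton, was higher at 5% O2 in both cultures, at 6.26 and 1.62 in four-factor cells, against 3.64 and 1.42 in untransduced fibroblasts (5% and 21% O2 in each). The proton pump Atp12a was higher by 1.02 in four-factor cells and differed by -1.87 in untransduced fibroblasts. The proton channel Hvcn1, known from leukocytes, was higher by 1.78 in untransduced fibroblasts, where macrophage markers were higher too, and Slc9a2 differed by -1.36 there. The part of macrophages in the Hvcn1 difference was not tested. On the untransduced array at 5% O2, Atp12a (-4.91) and Slc9a2 (-4.95) lay near the detection limit of that array (-5.13). Between cultures, Emb, a partner of lactate transporters, was lower in four-factor cells (-3.09 at 5% and -2.11 at 21% O2), and the lactate transporter Slc16a1 was higher (1.22 and 1.62). Of 5 channels for carbon dioxide and ammonia, Aqp5 was higher in four-factor cells (3.60 at 5% and 4.92 at 21% O2), as was Aqp1 (0.64 and 1.38).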

How the data were processed

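The authors extracted the arrays (design 014868) with Agilent Feature Extraction 9.5.3.1, per the file headers. Intensity here means their processed signal, corrected for background and spatial trend on each array, per the file headers. The deposited table gives log2 values; these equal the log2 processed signal less its array's 75th percentile (difference under 0.001 for at least 99.8% of probes), are not centred by probe, and have medians of -3.86 at both oxygen levels in four-factor cells and -3.69 (5% O2) and -3.70 (21% O2) in untransduced fibroblasts. Other software flags, for outlier spots and for spots well above background, are the authors' own, per the file headers.

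Outlier spots (65 to 115 non-control spots per array) were left out and repeated spots averaged; their standard deviation was 0.069 to 0.129 log2 units. The brightest probe stood for each of 28478 gene names. Accessions of 24375 probes were matched to a RefSeq table (GRCm38.p6). With 1 array measured, a bound was set against the dim signal or, if higher, the array's detection limit. The additive model used limma 3.58.1 (lmFit, eBayes, Benjamini-Hochberg) on genes measured on at least 2 arrays. Scripts were tested on simulated data. Alternatives were normexp (offset 50), quantile, median and spike-in scaling, the deposited table, no filter, probe means, and 1.5-fold or 3-fold thresholds. The genes named are all members, the 3 nearest by profile, and list genes past 2-fold. The members and lists were chosen with earlier results of these data known.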

Additional observations from a re-analysis of the deposited data

Results flagged for a closer look

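In 4 genes the oxygen difference (5% minus 21% O2) went one way in four-factor cells and the other way in untransduced fibroblasts, each by more than its spot error at the 75th percentile scaling, and the difference between cultures was not tested, since each condition had 1 array. The four-factor difference minus the untransduced one was -0.83 for Car2, -0.58 for Car7, -0.88 for Car8 and -0.52 for Car13. With Car6, whose four-factor difference was -0.01, 5 of 8 genes measured on all arrays were below 0 in four-factor cells and above 0 in untransduced fibroblasts, against 20.5% of all genes. With normexp the four-factor difference of Car8 was 0.10, which no longer opposes the untransduced one. With spike-in scaling the four-factor values kept their sign, but those of Car7 (-0.08), Car8 (-0.15) and Car13 (-0.13) were within their spot errors of 0.20, 0.27 and 0.20. Car6 turned to 0.14 with spike-in scaling and to 0.001 with quantile normalization.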

How the results depend on the processing

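No paired analysis was possible because each condition had 1 array, apart from the limma fit, which sets both oxygen levels against each other within a culture; no array could be left out. Of the counts of carbonic anhydrases past 2-fold, spike-in scaling changed 3: 1 gene (Car14) was higher at 5% O2 in four-factor cells, 4 were higher in four-factor cells at 21% O2 (Car7 joined, at 1.12), and 0 were lower in four-factor cells at 5% O2. Normexp left 2 lower at 5% O2, without Car8. At 21% O2 the lower count in four-factor cells was 1 with no filter on dim probes (Car4, dim on both arrays) and 2 with probe means (Car3 and Car8); probe means also left 2 higher at each oxygen level, without Car12. A 1.5-fold threshold gave 3 higher at 5% O2 in four-factor cells, 5 in untransduced fibroblasts, and 2 lower in four-factor cells at 21% O2; a 3-fold threshold gave 0 lower in four-factor cells at 5% O2. In the limma fits, spike-in scaling called 1 gene for oxygen (Car3), and for culture 5 higher and 0 lower; culture called 4 lower with normexp, 1 with quantile and with median scaling, and 4 with probe means. No called value reversed. Over all genes, the counts ran from 99 to 939 higher and 38 to 930 lower with oxygen in four-factor cells, 196 to 1094 and 132 to 1138 in untransduced fibroblasts, 2252 to 5548 and 1758 to 10297 between cultures at 5% O2, 1510 to 3559 and 1702 to 10092 at 21% O2, 0 to 309 and 0 to 209 for the oxygen term, and 4803 to 9185 and 2711 to 10986 for the culture term. Among all genes past 2-fold with oxygen in four-factor cells, the share higher was 72.3% with normexp and 76.0% with spike-in scaling. The number of arrays limits every value, and Car8, Car9 and Car14, and Car2 and Car3 in untransduced fibroblasts at 21% O2, also rest on signals near background. Car4 was not detectable at this signal.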

Other observations

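Car13, Car1, Car3 and Car2 follow each other in this order on chromosome 3 in the RefSeq gene table (GRCm38.p6), with no other protein-coding gene between them. Their values on these arrays did not run together in every comparison. Car2 and Car13, at the ends, were higher in four-factor cells at both oxygen levels, by 3.65 and 1.36 at 5% O2, while Car3 between them was lower there (-1.37). At 21% O2 each lay above 0, Car2 by 4.49, Car13 by 1.88 and Car3 by 0.26. That Car3 value was within its spot error of 0.27, and with normexp it was -0.16. Car1, an isozyme of red cells, was at -4.30 and -4.15 in four-factor cells (5% and 21% O2), against -4.98 at both oxygen levels in untransduced fibroblasts, where it was well above background at 5% O2 only. The large oxygen difference of Car3 in untransduced fibroblasts (2.08) was accompanied by 0.43 for Car2 and 0.24 for Car13.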
